A study of Rattus norvegicus with 8 samples.

Results

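Phase II conjugation enzymes attach a polar group to drugs, steroids, bilirubin and other lipophilic compounds so that these can leave the liver in bile or be cleared by the kidney. UDP-glucuronosyltransferases (Ugt) add glucuronic acid, cytosolic sulfotransferases (Sult) add sulfate from the donor PAPS, and glutathione S-transferases (Gst, and the membrane-bound Mgst) add glutathione. Hepatocytes express many of these enzymes at high levels, and rat isoforms differ between the sexes and between the zones of the liver lobule. The genes were chosen by the symbol of their family, with earlier results of these data known. The families were Ugt1 and Ugt2, Sult1 to Sult5, Gsta, Gstk, Gstm, Gsto, Gstp, Gstt, Gstz and Mgst. Each gene needed a probe set annotated to a single gene symbol. This gave 37 genes of the 14511 tested: 7 Ugt2, 6 Sult1, 5 Sult2 to Sult5, 3 Gsta, 8 Gstm, 6 of other Gst classes and 2 Mgst. A further 7 probe sets carried the symbols of several family members and were left out, and no Ugt1 gene is among the 37.

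RNA was measured with 8 Affymetrix whole-transcript arrays in perfused liver of male Wistar rats aged 6 to 10 weeks. Krebs-Henseleit buffer was normoosmotic (305 mosm/L) for 4 samples and hypoosmotic (225 mosm/L) for 4, a condition in which hepatocytes take up water and swell, and all samples belong to the 180 min time point. No label ties a sample to an individual animal, and the p-values therefore reflect scatter among these samples that may be technical. The number of arrays limits the precision.

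Values are log2 expression as deposited, so that a difference of 1 is a doubling, and changes are given as hypoosmotic minus normoosmotic means, each with a standard error (SE) from limma, a linear model with variances moderated over all genes. A gene is said to have risen or fallen where its Benjamini-Hochberg adjusted p over all 14511 genes was under 0.05. By that rule 1026 genes changed, or 7.07%, with 356 higher (2.45%) and 670 lower (4.62%), and median centring of the arrays turned this into 235 higher and 733 lower. Array medians lay between 3.92 and 4.05. Hypoosmotic replicate 3 stood apart along the second principal component, at 28.5 against -15.3 to 6.60 for the other 7 arrays, and the counts of calls and of separated groups are also given without it. The defining markers of hepatocytes were strongly measured, and 0 of 10 passed the test (limma; 1 had an unadjusted p under 0.05), with a mean log2 level of 11.81 to 11.98 in normoosmotic and 11.91 to 11.93 in hypoosmotic samples. RNA was taken from whole tissue, so fewer cells of a type and less RNA per cell cannot be told apart.

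Of the 37 conjugation enzyme genes 4 rose and 0 fell, which is 10.8% called against 7.07% of all genes. They were Gstm4, Sult1b1, Gstp1 and Gsto2, with rises of 1.57-fold to 1.71-fold. The median change of the 37 genes was 0.15, with 27 above 0, 9 below and 1 at 0, while the median over all genes was 0.02, with 7724 above 0 and 6707 below. An unadjusted p under 0.05 was reached by 8 of the 37 genes and by 20.7% of all genes. The groups did not overlap in 6 of the 37, each with the hypoosmotic arrays on top. Over all genes 13.5% were separated, 5.33% upward and 8.21% downward. Without hypoosmotic replicate 3, 10 of the 37 were separated upward (8.24% of all genes) and 1 downward (10%). In that fit 2 of the 37 were called, Gstm4 and Gstp1, beside 6.31% of all genes. Only 4 of the 37, Gstm6, Sult1d1, Sult5a1 and Ugt2a1, had both group means under 3.37, the 95th percentile of 53 odorant receptor genes, taken as near background.

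**Figure D1:**
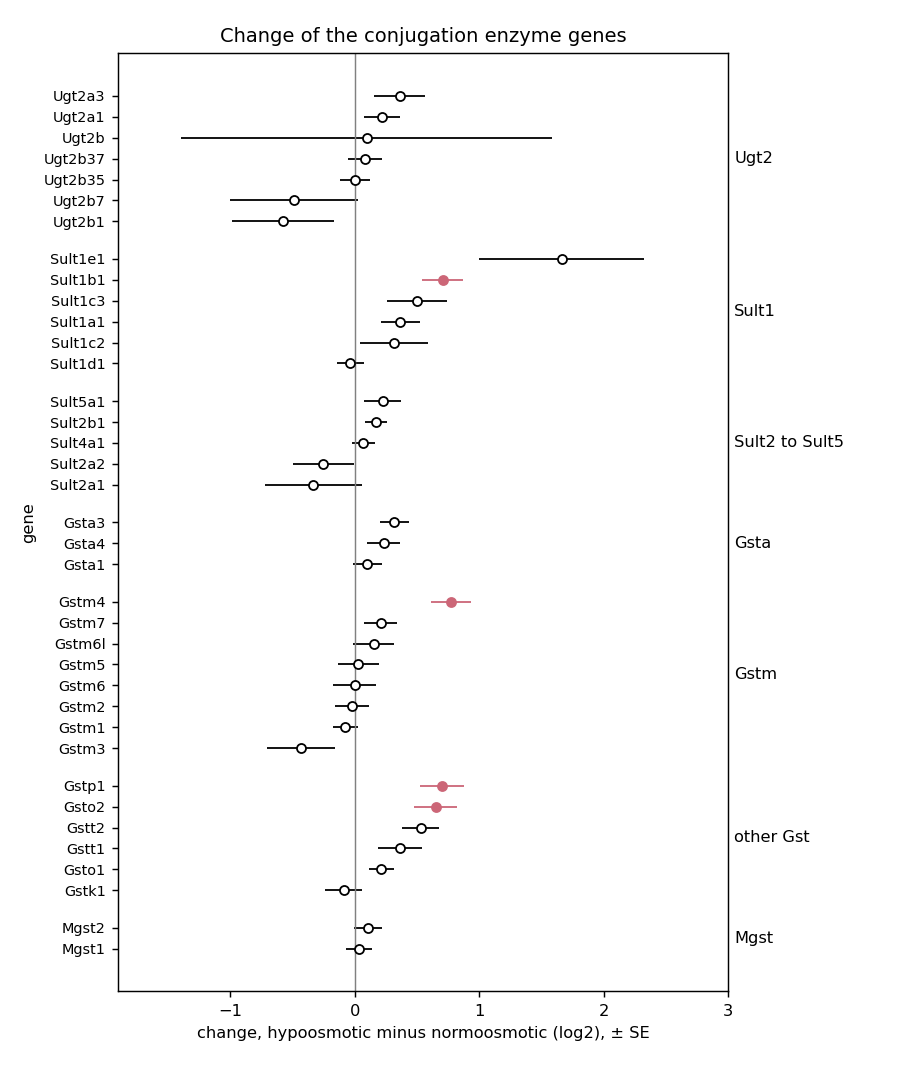
Change of each of the 37 conjugation enzyme genes, hypoosmotic minus normoosmotic on the log2 scale with its SE, by family; filled points passed an adjusted p of 0.05. The 4 filled points lie between 0.65 and 0.78, and Ugt2b and Sult1e1 have the longest error bars.

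The stretches of 250 bases before the annotated starts of the 4 genes that rose are shown because matches to 3 transcription factor motifs were looked for there. The sequences are from RefSeq (GRCr8), 5′ to 3′ along each gene's own strand, and 31 of the 37 genes had an entry. Capitals mark matches on either strand to TGACNNNGC, the core of the antioxidant response element, GCGTG, the core of the xenobiotic response element, or GTTAAT, part of the site of the hepatocyte factor HNF1.
Gstp1 (chr1:210769706-210769955, minus strand): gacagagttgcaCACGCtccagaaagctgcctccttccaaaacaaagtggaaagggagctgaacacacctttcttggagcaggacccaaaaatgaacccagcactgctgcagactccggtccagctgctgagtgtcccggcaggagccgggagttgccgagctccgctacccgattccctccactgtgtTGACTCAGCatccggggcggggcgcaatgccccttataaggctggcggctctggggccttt
Gstm4 (chr2:198373384-198373633, minus strand): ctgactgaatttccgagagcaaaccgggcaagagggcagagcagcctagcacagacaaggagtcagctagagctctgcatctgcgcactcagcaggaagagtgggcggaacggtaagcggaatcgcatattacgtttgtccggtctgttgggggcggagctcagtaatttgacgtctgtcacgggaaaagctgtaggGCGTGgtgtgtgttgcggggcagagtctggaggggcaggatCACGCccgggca
Sult1b1 (chr14:20771667-20771916, plus strand): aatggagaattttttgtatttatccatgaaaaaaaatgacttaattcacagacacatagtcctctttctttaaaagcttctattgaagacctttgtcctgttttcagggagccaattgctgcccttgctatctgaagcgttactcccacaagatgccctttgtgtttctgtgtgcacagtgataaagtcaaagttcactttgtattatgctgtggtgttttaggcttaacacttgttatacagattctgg
Gsto2 (chr1:256673126-256673375, plus strand): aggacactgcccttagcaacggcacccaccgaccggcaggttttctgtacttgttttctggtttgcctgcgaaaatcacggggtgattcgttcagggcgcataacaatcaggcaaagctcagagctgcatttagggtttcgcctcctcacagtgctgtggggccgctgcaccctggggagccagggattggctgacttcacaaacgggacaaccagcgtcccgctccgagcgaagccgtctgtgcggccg
For Gsto2 the first of 2 listed starts is shown. In the shares that follow, a gene was counted if any of its listed starts matched, while each entry was counted alone. Genes with several starts thus had more chances of a match. In the 300 bases from 250 before to 50 after the start, TGACNNNGC was found for 5 of the 31 genes (16.1%) and in 12.1% of all 33469 entries, GCGTG for 6 (19.4%) against 29.7%, and GTTAAT for 4 (12.9%) against 7.45%. The Gstp1 match to TGACNNNGC, TGACTCAGC, began 61 bases before the start and also contains the binding sequence of AP-1. Gstm4 held GCGTG at 53 bases before the start and, on the other strand, at 12 bases before it, while Sult1b1 and Gsto2 held none of the 3 motifs. A match here is a match of letters, and whether a factor binds there was not measured.

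Gstm4, a class mu glutathione transferase, had the smallest adjusted p of the family. Its values were 6.83, 7.14, 6.77 and 6.92 on normoosmotic arrays 1 to 4 and 8.04, 7.32, 7.54 and 7.86 on hypoosmotic arrays 1 to 4. Every hypoosmotic value lay above every normoosmotic one, and the mean went from 6.92 ± 0.16 to 7.69 ± 0.32 (SD, n = 4 each), a 1.71-fold rise with a change of 0.78 ± 0.16 (SE) and an adjusted p of 0.016 (limma). The call was lost without normoosmotic replicate 3 (adjusted p = 0.0546) and held in the other 7 fits that left out 1 array, at 0.0140 to 0.0462.

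Most class mu genes lie next to each other in the RefSeq gene order, where Gstm1 is the neighbour of Gstm4, and their products are similar in sequence, so probes may share signal. Beside 7.07% of all genes called, 1 of the 8 measured rose and 0 fell. The median change was 0.02, which became -0.03 with each array centred on its median and -0.01 after a further quantile normalization; its sign thus depended on the scaling. Gstm1, a main glutathione transferase of rat liver, was 12.02 ± 0.07 and 11.95 ± 0.12 (SD, n = 4 each) with a change of -0.08 ± 0.10 (SE). For Gstm2 the levels were 10.50 ± 0.23 and 10.48 ± 0.18 and the change -0.02 ± 0.14. Neither passed (adjusted p = 0.764 and 0.966, limma).

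Gstm3 had the lowest change of the class, -0.43 ± 0.28 (adjusted p = 0.442, limma). Its normoosmotic values of 7.88, 8.74, 9.28 and 8.40 were spread more widely than its hypoosmotic ones of 7.78, 8.09, 8.0 and 8.71, and the groups overlapped. Gstm7 and Gstm6l had changes of 0.21 ± 0.13 and 0.15 ± 0.16, Gstm5 one of 0.03 ± 0.16, and Gstm6, near background, had equal group means of 2.67.

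Gstp1, the class pi enzyme, is low in normal rat hepatocytes, present in bile duct cells and strongly induced in preneoplastic liver foci. It read 5.55, 6.22, 5.77 and 6.08 on normoosmotic and 6.62, 6.73, 6.20 and 6.88 on hypoosmotic arrays. The groups overlapped slightly, since hypoosmotic replicate 3 at 6.20 lay under normoosmotic replicate 2 at 6.22. The mean went from 5.91 ± 0.30 to 6.61 ± 0.29 (SD, n = 4 each), or 1.63-fold, with a change of 0.70 ± 0.18 (SE) and an adjusted p of 0.0375 (limma). Leaving out single arrays kept the call in 2 of 8 fits, at 0.0363 without normoosmotic replicate 2 and 0.0166 without hypoosmotic replicate 3. It was lost without normoosmotic replicates 1 (0.0956), 3 (0.105) and 4 (0.0625) and without hypoosmotic replicates 1 (0.0805), 2 (0.0971) and 4 (0.0788), after median centring (0.0647) and with all probe sets tested together (0.0519). Of 6 measured bile duct markers 0 passed (limma), beside 7.07% of all genes called. An unadjusted p under 0.05 was reached by 0 of the 6 and by 20.7% of all genes. The mean log2 level of these markers was 4.08 to 4.16 in normoosmotic and 4.11 to 4.16 in hypoosmotic samples. Among these markers 2 were near background, and the part of bile duct cells in the Gstp1 values was not tested.

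Gsto2 and Gsto1 are class omega enzymes, which reduce dehydroascorbate and act as thioltransferases. Their genes are neighbours in the RefSeq order. Gsto2 was dim, at 3.50, 4.12, 3.99 and 3.48 on normoosmotic and 4.75, 4.24, 4.35 and 4.35 on hypoosmotic arrays, with no overlap. It rose 1.57-fold, from 3.77 ± 0.33 to 4.42 ± 0.22 (SD, n = 4 each), with a change of 0.65 ± 0.17 (SE) and an adjusted p of 0.0439 (limma). Of the 4 calls it held in the fewest fits. With single arrays left out it held once, without normoosmotic replicate 2 (0.0335), while the other 7 fits gave 0.0619 to 0.117, the highest without normoosmotic replicate 4. It was also lost with the replicate number as a term (0.0721), after median centring (0.0687), after a further quantile normalization (0.0623) and with all probe sets tested together (0.0605).

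For Gsto1 the values were 8.54, 8.47, 8.48 and 8.46 against 8.77, 8.85, 8.63 and 8.56, separated but by little, with a change of 0.22 ± 0.10 and an adjusted p of 0.252 (limma). The class theta genes, whose enzymes act on small electrophiles such as haloalkanes, were both higher on average. Gstt2 read 8.08, 8.31, 7.64 and 8.22 in normoosmotic and 8.67, 8.75, 8.44 and 8.51 in hypoosmotic samples. All 4 hypoosmotic values were above the normoosmotic ones, yet its change of 0.53 ± 0.15 (SE), or 1.44-fold, missed the threshold (adjusted p = 0.0567, limma). It passed under 4 of 8 other settings, with adjusted p from 0.0352 to 0.0901 over them, and in 0 of the 8 fits without 1 array (0.0540 to 0.140). Gstt1 differed by 0.37 ± 0.18 (adjusted p = 0.274), while the mitochondrial and peroxisomal enzyme gene Gstk1 differed by -0.09 ± 0.15.

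**Figure D2:**
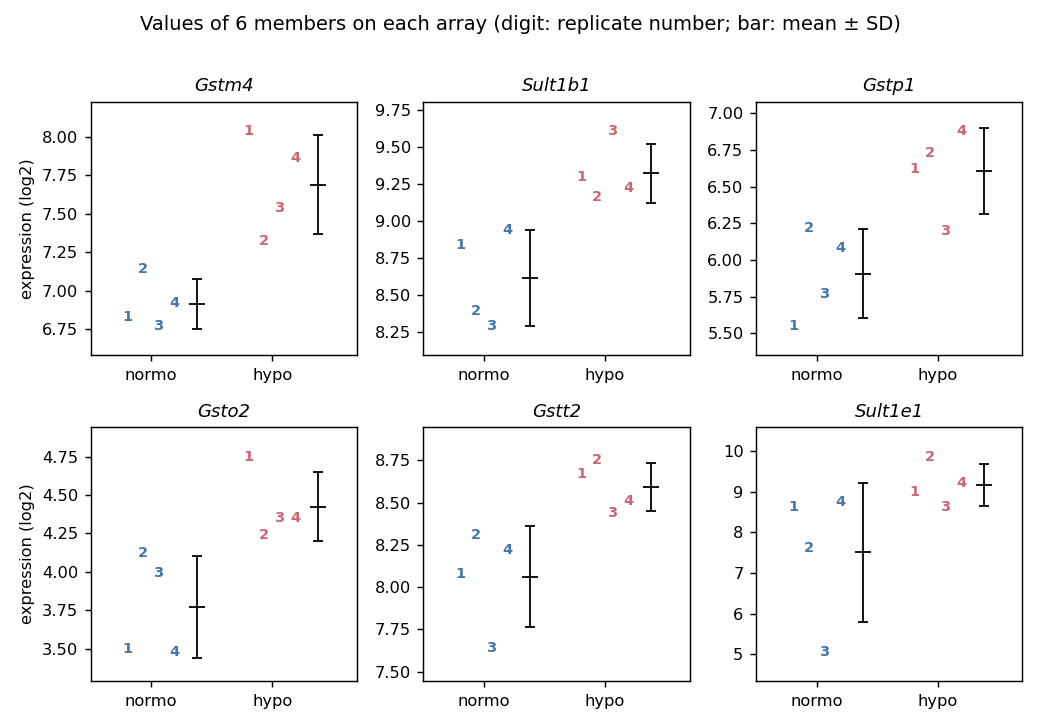
Log2 expression of 6 genes on each array, with digits for the replicate number and bars for the mean ± SD of 4 arrays; each panel has its own vertical range. Groups are separated for Gstm4, Sult1b1, Gsto2 and Gstt2, overlap slightly for Gstp1, and overlap for Sult1e1, where normoosmotic replicate 3 reads 5.06.

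The class alpha enzymes, among the most abundant cytosolic proteins of liver, did not pass. Gsta1 was 10.71 ± 0.11 and 10.82 ± 0.19 (SD, n = 4 each) with a change of 0.10 ± 0.12 (SE, adjusted p = 0.719, limma). Gsta3, whose product was earlier called Yc2 and detoxifies aflatoxin epoxide, read 6.20, 6.24, 6.35 and 6.30 against 6.76, 6.59, 6.71 and 6.30. It differed by 0.32 ± 0.12 (adjusted p = 0.141, limma) and passed at 0.0402 once hypoosmotic replicate 4 was left out, whose value of 6.30 equals that of normoosmotic replicate 4. Gsta4, which conjugates the lipid peroxidation product 4-hydroxynonenal, had 2 probe sets, with changes of 0.23 ± 0.14 for the brighter and 0.19 ± 0.11 for the other. The membrane-bound enzyme gene Mgst1 stayed within its spread, at 12.11 ± 0.09 and 12.15 ± 0.13 with a change of 0.04 ± 0.11 (adjusted p = 0.907), and Mgst2, an enzyme that can also make leukotriene C4, had a change of 0.11 ± 0.11.

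Among sulfotransferases 1 of 11 rose and 0 fell, beside 7.07% of all genes called. Sult1b1, which sulfates thyroid hormones and small phenols, read 8.84, 8.39, 8.29 and 8.94 on normoosmotic and 9.30, 9.16, 9.61 and 9.22 on hypoosmotic arrays, with no overlap. The mean went from 8.62 ± 0.32 to 9.32 ± 0.20 (SD, n = 4 each), or 1.63-fold, with a change of 0.71 ± 0.16 (SE) and an adjusted p of 0.0272 (limma). It held in 4 of the 8 fits without 1 array. It was lost without normoosmotic replicates 2 (0.0751) and 3 (0.0802) and hypoosmotic replicates 1 (0.0582) and 3 (0.0541).

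Sult1e1, the estrogen sulfotransferase, had the largest change of the 37 genes, 1.67 ± 0.66 (SE), and did not pass (adjusted p = 0.174, limma). Its normoosmotic values were 8.62, 7.61, 5.06 and 8.75 and its hypoosmotic values 8.99, 9.87, 8.63 and 9.21. Normoosmotic replicate 3 lay 2.55 below the next value of any array. Without it the change was 0.85 ± 0.32 (adjusted p = 0.193). Sult1c3, which acts on N-hydroxyarylamines, was also lowest in normoosmotic replicate 3, at 8.99 among 10.32, 9.92, 8.99 and 10.08, against 10.29, 10.62, 10.26 and 10.14 in hypoosmotic samples (change 0.50 ± 0.24, adjusted p = 0.278). The phenol sulfotransferase gene Sult1a1 was lowest in another array, normoosmotic replicate 1, at 9.77 among 9.77, 10.51, 10.53 and 10.25, and its hypoosmotic values were 10.53, 10.58, 10.74 and 10.68. Its change was 0.37 ± 0.16 with an adjusted p of 0.217. Sult1c2 had a change of 0.32 ± 0.28, and Sult1d1, near background, one of -0.04 ± 0.11.

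The hydroxysteroid sulfotransferases Sult2a1 and Sult2a2, which act on dehydroepiandrosterone and bile acids, varied more between arrays than between groups. Sult2a1 read 9.27, 9.77, 10.65 and 9.83 in normoosmotic and 9.10, 9.75, 10.65 and 8.69 in hypoosmotic samples, reaching 10.65 in replicate 3 of both groups. Sult2a2 had its highest values on the same arrays, 10.50 and 10.44. The changes were -0.33 ± 0.39 and -0.25 ± 0.25 (SE, adjusted p = 0.721 and 0.657, limma). Probes of genes of similar sequence may share signal, and the identity of these genes was not computed here. Sult2b1, which sulfates cholesterol and pregnenolone, was tightly measured at 4.04 ± 0.03 and 4.21 ± 0.07 (SD, n = 4 each). Its groups did not overlap, but the change of 0.17 ± 0.09 did not pass (adjusted p = 0.332). The brain isoform gene Sult4a1 and Sult5a1 had changes of 0.07 ± 0.10 and 0.23 ± 0.15.

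None of the 7 Ugt2 genes passed (limma), beside 7.07% of all genes called. An unadjusted p under 0.05 was reached by 0 of the 7 and by 20.7% of all genes. The changes of the Ugt2 genes ran from -0.58 to 0.36. Ugt2b, listed in RefSeq with the synonym Ugt2b2, glucuronidates androsterone and related steroids, and had the widest spread within groups of all 14511 genes. It read 8.48, 8.71, 3.65 and 4.17 on normoosmotic arrays 1 to 4 and 8.84, 3.77, 9.07 and 3.71 on hypoosmotic arrays 1 to 4. The 8 values thus fell into 4 from 8.48 to 9.07 and 4 from 3.65 to 4.17, with 2 of each in either group. The gap between them, 4.31 on the log2 scale, was matched or exceeded between neighbouring values in 2 of the 14511 genes, Ugt2b included. Its pooled SD was 2.87 against a median of 0.18 over all genes, and its change was 0.10 ± 1.49 (SE, adjusted p = 0.986, limma). As background, a deletion in this gene is known in Wistar rats and gives some animals low androsterone glucuronidation. The labels give no genotype, and the part of such a deletion in these values was not tested.

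The Ugt2b genes follow one another in the RefSeq order, and no other Ugt2 gene had neighbouring values so far apart, the next largest gap being 1.22 for Ugt2b1. Ugt2b35 on the same arrays read 10.52, 10.21, 10.09 and 10.06 and 10.24, 10.17, 10.34 and 10.15, and Ugt2b37 read 9.44, 8.90, 9.06 and 9.45 and 9.25, 9.45, 9.17 and 9.31. The 8 arrays spanned 0.46 for Ugt2b35 and 0.55 for Ugt2b37. Ugt2b7 was highest on normoosmotic replicates 1 and 2, at 5.51, 4.34, 2.65 and 3.00, against 3.99, 3.14, 3.34 and 3.07 in hypoosmotic samples. Ugt2b1, an isoform for testosterone and morphine, read 10.75, 9.53, 9.14 and 8.28 and 9.12, 8.64, 9.21 and 8.43, with normoosmotic replicate 1 the highest of all 8. Their changes were -0.49 ± 0.51 and -0.58 ± 0.41 (SE; adjusted p = 0.682 and 0.506, limma). Ugt2a3 had a change of 0.36 ± 0.21 (adjusted p = 0.38), and Ugt2a1, an isoform of the olfactory epithelium, was near background at 1.86 ± 0.12 and 2.07 ± 0.29.

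**Figure D3:**
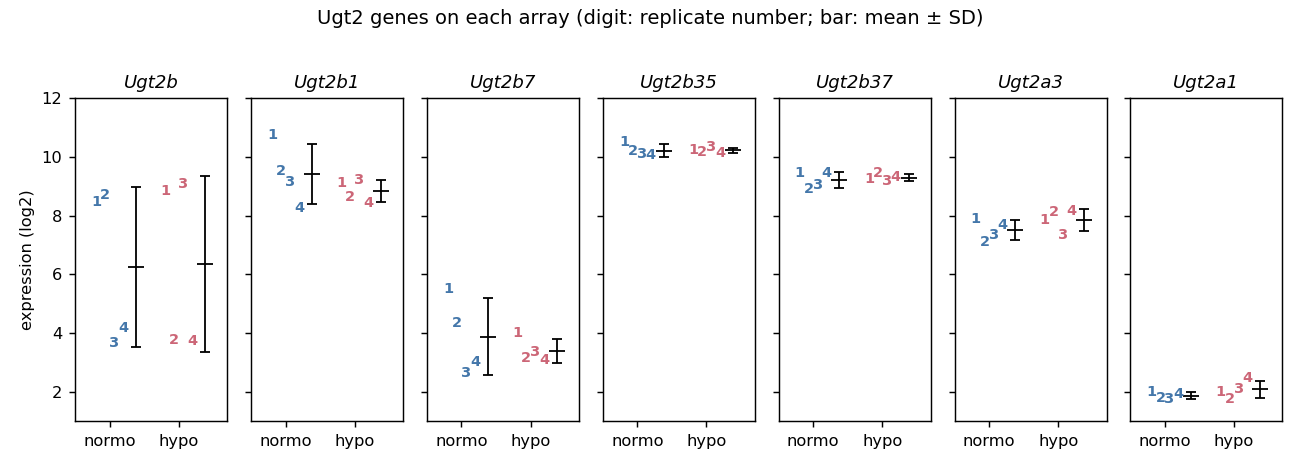
Log2 expression of the 7 Ugt2 genes on each array on a shared vertical axis, with digits for the replicate number and bars for the mean ± SD of 4 arrays. Ugt2b lies near 9 on normoosmotic arrays 1 and 2 and hypoosmotic arrays 1 and 3 and near 4 on the other 4, while Ugt2b35 and Ugt2b37 are level.

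The number of conjugation enzyme genes called depended on single arrays, and is given here with the share of all genes called in the same fit. It was 0 without normoosmotic replicate 3 (3.23% of all genes), where 8 of the 37 still had an unadjusted p under 0.05 (limma). It was 1 without hypoosmotic replicate 1 (4.76%). It was 2 without normoosmotic replicate 1 (4.31%) or 4 (3.88%) and without hypoosmotic replicate 2 (3.76%) or 3 (6.31%). It was 3 without normoosmotic replicate 2 (4.65%) and without hypoosmotic replicate 4 (7.24%), where Gsta3 was among them. Normoosmotic replicate 3 was the lowest of the 8 arrays for 12 of the 37 genes, where it was the lowest for 12.8% of all genes. The median change of the 37 genes was 0.10 without it and between 0.14 and 0.20 without any other array.

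With all arrays kept, Gstm4 and Sult1b1 passed under each of the 8 other settings. They were the only 2 members called with median centring (6.67% of all genes) and with all probe sets tested together (5.44%). The count was 4 with the replicate number as a term (7.09%) and after a further quantile normalization (7.33%), where Gstt2 took the place of Gsto2. With an intensity trend (6.88%) and with probe sets averaged (7.0%) the 4 were the same genes as reported. Array weights (8.15%) and leaving out the dimmest genes (11.2%) added Gstt2 for a count of 5.

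**Figure D4:**
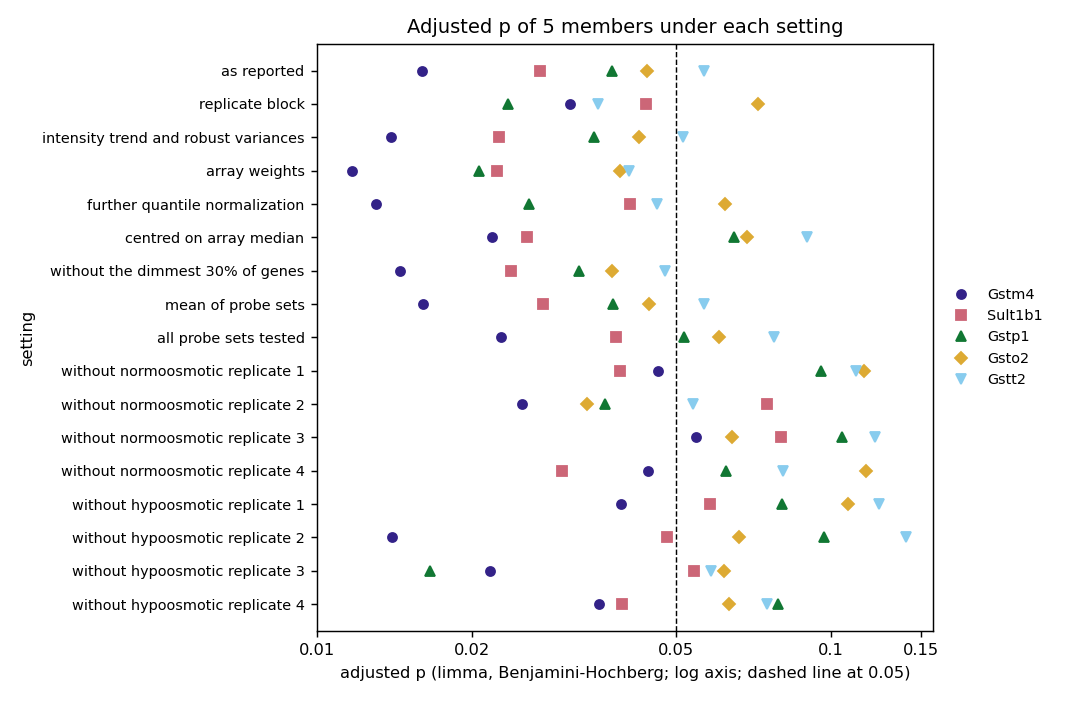
Adjusted p (limma, log axis) of 5 genes as reported and under each other setting, with a dashed line at 0.05. Gstm4 lies right of the line only without normoosmotic replicate 3, at 0.0546, while Gsto2 and Gstp1 lie right of it in most fits that leave out 1 array.

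Genes that supply, extend, reverse or control conjugation were taken from lists chosen by function, 87 genes of which 77 were measured. Of these 6 rose and 2 fell, or 8 of 77 against 7.07% of all genes, with a median change of 0.13. The counts of calls in each related or marker list below stand beside that same share. Without hypoosmotic replicate 3, 6 also rose and 2 fell, with Nqo1 called and Nr1i2 not, beside 6.31% of all genes called in that fit. For glucuronidation, 0 of 5 genes of the UDP-glucuronic acid list passed (limma; 2 had an unadjusted p under 0.05). Those 2 were Uxs1 and Gusb, whose products use up UDP-glucuronic acid and cleave glucuronides rather than supply the donor. Gusb had a change of 0.29 ± 0.11 (SE, adjusted p = 0.153, limma). Ugdh, which makes UDP-glucuronic acid, had a change of -0.29 ± 0.15 (SE), and Uxs1, which turns it into UDP-xylose, one of -0.38 ± 0.12 (adjusted p = 0.303 and 0.0865).

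For sulfation, 1 of 8 genes rose and 1 fell. Papss2, which makes the sulfate donor PAPS in liver, read 9.83, 9.62, 9.63 and 9.64 on normoosmotic and 8.94, 9.33, 9.29 and 9.03 on hypoosmotic arrays, with every hypoosmotic value lower. It fell by 0.53 on the log2 scale (SE 0.12, adjusted p = 0.0225, limma). Bpnt1, which breaks down the PAP left after sulfate transfer, went from 6.41 ± 0.17 to 6.88 ± 0.10 (SD, n = 4 each), a change of 0.48 ± 0.11 (adjusted p = 0.0302). Papss1 had a change of 0.28 ± 0.17 and did not pass (adjusted p = 0.416). Of the 8 fits without 1 array Papss2 passed in 4, and it was lost without normoosmotic replicates 1 (0.0634), 3 (0.0561) and 4 (0.0518) and hypoosmotic replicate 1 (0.058). Bpnt1 passed in 2 and was lost without normoosmotic replicates 2 (0.0693), 3 (0.0936) and 4 (0.084) and hypoosmotic replicates 1 (0.0651), 2 (0.0795) and 4 (0.0595), and with all arrays kept it was lost after median centring (0.0514).

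For glutathione, 1 of 12 genes rose and 0 fell. It was Slc25a39, a carrier that brings glutathione into mitochondria, at 0.54 ± 0.13 (SE, adjusted p = 0.0375, limma), which passed in 3 of 8 fits without 1 array. It was lost without normoosmotic replicates 1 (0.1) and 4 (0.103) and hypoosmotic replicates 1 (0.0966), 2 (0.0924) and 4 (0.0566). With all arrays kept it was lost with the replicate number as a term (0.0628), after median centring (0.0729) and with all probe sets tested together (0.052). Gclc, the catalytic subunit of the rate-limiting enzyme of glutathione synthesis, had a change of 0.12 ± 0.15 (adjusted p = 0.748). Of 9 genes listed for other conjugations, which include the acyl-CoA synthetase genes Acsm3 and Acsm5, 1 rose. Nnmt, which methylates nicotinamide, changed by 0.53 ± 0.11 (adjusted p = 0.0182), and passed in 6 of 8, being lost without normoosmotic replicates 3 (0.0547) and 4 (0.0521).

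Of 10 genes listed for the export of conjugates and drugs, which include Rdx, not itself a transporter, 1 fell and 0 rose. Abcc2, the pump that secretes glucuronide and glutathione conjugates into bile, read 11.08, 10.66, 10.90 and 10.57 against 10.10, 9.96, 10.09 and 10.25. Every hypoosmotic value was the lower, and Abcc2 fell by 0.70 on the log2 scale (SE 0.13, adjusted p = 0.0109, limma), a call that held in all 8 fits without 1 array (up to 0.0388). Abcc3, its counterpart on the blood side, had a change of 0.25 ± 0.21 (adjusted p = 0.588). The lowest change of the list was that of Abcb1b, at -0.985 ± 0.338 (SE), with overlapping groups, and it did not pass (adjusted p = 0.114, limma). Its values were 10.02, 9.97, 10.89 and 10.18 against 8.86, 9.03, 8.79 and 10.44, and only hypoosmotic replicate 4 reached the normoosmotic range. Dropping that array made Abcb1b a call (adjusted p = 0.00824), whereas dropping any other did not (up to 0.272). The 8 other settings gave 0.063 to 0.181.

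Of 17 regulators 1 rose and 0 fell. This was Nr1i2, the pregnane X receptor, which induces many drug-metabolising genes, at 6.78, 6.80, 7.11 and 6.35 in normoosmotic and 7.15, 7.49, 7.88 and 7.66 in hypoosmotic samples, a change of 0.79 ± 0.18 (SE, adjusted p = 0.0278, limma). The groups did not overlap, and it passed in 2 of 8 fits without 1 array. It was lost without normoosmotic replicates 1 (0.0628), 2 (0.06) and 4 (0.0701) and hypoosmotic replicates 2 (0.0629), 3 (0.0546) and 4 (0.0563). Nfe2l2, which encodes NRF2 and acts through the antioxidant response element, had a change of 0.23 ± 0.10 (adjusted p = 0.246). Its inhibitor Keap1 had one of -0.30 ± 0.10 (adjusted p = 0.102), and Ahr, which acts through the xenobiotic response element, one of -0.17 ± 0.19 (adjusted p = 0.722). Of the 17 regulators 6 had an unadjusted p under 0.05 (limma), and the groups were separated upward in 5 and downward in 2. Over all genes 20.7% had such a p, with 5.33% separated upward and 8.21% downward. Ppara, separated upward, had a change of 0.76 ± 0.23 (SE, adjusted p = 0.078, limma). Of 16 partner enzymes 2 rose. They were the aldehyde reductases Akr7a2 at 0.55 ± 0.10 (adjusted p = 0.0114, in all 8 fits) and Akr7a3, which reduces aflatoxin dialdehyde, at 0.93 ± 0.24 (adjusted p = 0.0401). Akr7a3 passed in 2 of the 8 and was lost without normoosmotic replicates 2 (0.0777), 3 (0.113) and 4 (0.11) and hypoosmotic replicates 1 (0.1), 2 (0.0976) and 4 (0.0711), and also after median centring (0.0537) and with all probe sets tested together (0.055). The quinone reductase gene Nqo1 had a change of 1.12 ± 0.31 and an adjusted p of 0.0560, and of 0.0158 to 0.152 with 1 array left out, passing only without hypoosmotic replicate 3. It passed under 4 of the 8 other settings, with adjusted p from 0.00739 to 0.0833.

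**Figure D5:**
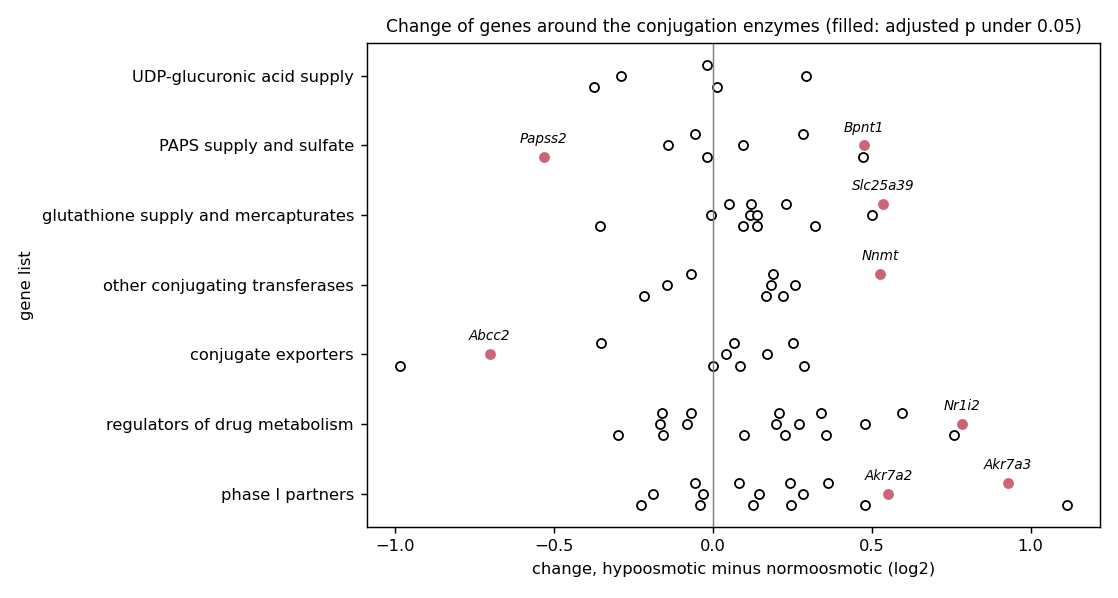
Change of 77 genes around the conjugation enzymes, hypoosmotic minus normoosmotic on the log2 scale, by list; filled, named points passed an adjusted p of 0.05. Papss2 and Abcc2 are the filled points below 0, and 6 lie above.

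Markers of other cell types and of lobular zones gave these values beside the calls, and their part in the results was not tested. Of 5 measured sinusoidal endothelial markers Kdr rose and Oit3 fell, 4 had an unadjusted p under 0.05 and 4 were above 0, with a median change of 0.35. Their mean log2 level was 7.20 to 7.40 in normoosmotic and 7.31 to 7.80 in hypoosmotic samples. The call of Kdr was lost without normoosmotic replicates 1 (0.0654), 2 (0.0563) and 4 (0.0549) and hypoosmotic replicates 1 (0.0607), 2 (0.0606) and 3 (0.0516). That of Oit3 was lost in every fit without 1 array but the one without hypoosmotic replicate 3, at up to 0.0782, without hypoosmotic replicate 1, and after a further quantile normalization (0.0506).

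Of 8 stellate cell markers Colec11 rose, 3 had an unadjusted p under 0.05 and 7 were above 0, with a median change of 0.26. The list mean was 5.95 to 6.02 in normoosmotic and 5.77 to 6.45 in hypoosmotic samples. Dcn read 7.09, 7.08, 7.13 and 7.23 on normoosmotic and 8.01, 8.01, 7.96 and 5.82 on hypoosmotic arrays. It passed only without hypoosmotic replicate 4 (adjusted p = 0.00438, limma). Reln, the 1 marker below 0, at -0.57 ± 0.18 (SE), passed only without hypoosmotic replicate 1 (0.0461). The call of Colec11 was lost without normoosmotic replicates 1 (0.102), 2 (0.0778), 3 (0.0938) and 4 (0.0898) and hypoosmotic replicates 2 (0.107) and 3 (0.0758), after median centring (0.0574) and with all probe sets tested together (0.057). Of 10 macrophage markers 0 passed (limma; 1 had an unadjusted p under 0.05), with a list mean of 6.38 to 6.84 in normoosmotic and 6.54 to 7.19 in hypoosmotic samples. Among 7 pericentral markers the ammonium transporter gene Rhbg rose and 3 had an unadjusted p under 0.05, with 4 above 0 and a list mean of 7.06 to 7.30 in normoosmotic and 7.06 to 7.25 in hypoosmotic samples. Rhbg was lost without normoosmotic replicates 2 (0.0665), 3 (0.0967) and 4 (0.0868) and hypoosmotic replicates 1 (0.0827) and 2 (0.0748), and without hypoosmotic replicate 3 the marker Axin2 was called lower. Among 8 periportal markers the arginase gene Arg1 rose, in all 8 fits without 1 array, and 2 had an unadjusted p under 0.05. In this list 7 markers were above 0, with a list mean of 8.63 to 8.90 in normoosmotic and 8.75 to 9.35 in hypoosmotic samples. Lymphocyte markers lay between 3.51 and 3.69 on all arrays as list means, with 4 of 6 genes near background, and red blood cell markers between 4.05 and 5.18; 0 of these 6 and 3 markers passed or had an unadjusted p under 0.05 (limma).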

How the data were processed

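Whole-transcript arrays of perfused rat liver gave the values, with groups and replicate numbers from the sample titles. The authors deposited log2 expression for 27596 probe sets on 8 arrays. The submitters' processing notes name RMA, Transcriptome Analysis Console 4.0 and Affymetrix Expression Console without their roles. RMA makes the arrays' distributions alike, which would hide a shift common to most genes. The genome build is not given in the sources used here.

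Names came from the 2016 annotation of the platform, by which 15316 probe sets had 1 symbol, 317 several, and 11963 were not named here. A symbol repeated on 1 probe set counted as 1, which admitted Sult1e1. The probe set with the highest mean stood for a gene. Symbols were matched to RefSeq for 15285 probe sets by gene identifier and 6 by accession, 25 were kept, and 2 changed.

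The test was limma 3.58.1 (lmFit and eBayes, group only, 2-sided) under R 4.3.3. Python 3.11.15 prepared tables. The members and lists were chosen with earlier results of these data known. Genes named were, by rule, each that passed, the 2 smallest p-values of each subfamily and 13 set genes where measured. The other conjugation genes were named after their values were seen, as were several related and marker genes. Other settings were a replicate term, array weights, robust variances with an intensity trend, median centring, further quantile normalization, leaving out the dimmest 30% of genes, averaging probe sets, testing all probe sets, and leaving out each array.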

Additional observations from a re-analysis of the deposited data

Results flagged for a closer look

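Gstm2 on normoosmotic replicate 3, at 10.16, lay apart from the other 3 normoosmotic arrays, which read 10.59 to 10.63, a gap of 0.915 of the group's range by Dixon's criterion. It was the single value set apart in this way among 74 groups of 4 arrays examined, and chance sets apart about 1 group in 20 (5%). The cause was not tested.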

How the results depend on the processing

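The 4 calls came from 4 arrays against 4, and the count of conjugation enzyme genes called was 2 with median centring and 2 with all probe sets tested together, where Gstm4 and Sult1b1 passed; it was 4 or 5 under the other 6 settings. Leaving out 1 array gave 0 to 3, and 468 to 1051 over all genes. With the replicate block the counts were 4 and 1029, with Gstt2 called (adjusted p = 0.0352) and Gsto2 not (0.0721). The labels do not say that equal numbers mark pairs, and the correlations of their deviations were 0.00613, 0.257, 0.116 and 0.0627, all 4 above 0 but not all over 0.1, so samples were not treated as paired; 6 of 8 arrays correlated best with their own number, which is a hint of pairing from the data. The median change of the conjugation enzyme genes stayed between 0.095 and 0.2025 in every setting run. Of 573 values of the 36 genes with a change other than 0, 517 kept direction and call, 24 lost a call, 5 gained one and 27 changed sign, none of these called; the cause was not tested. Sign changes outside the fits without 1 array were Gstm2 with array weights (0.032), Gstm5 with quantile normalization (-0.018) and centring (-0.010), Mgst1 with centring (-0.0050) and Ugt2b35 with array weights (-0.00015), quantile normalization (-0.0017) and centring (-0.035). Without 1 array the ranges were -0.19 to 0.00083 for Gstk1, -0.13 to 0.066 for Gstm2, -0.053 to 0.18 for Gstm5, -0.12 to 0.12 for Gstm6 (equal group means as reported), -0.027 to 0.080 for Mgst1, -0.098 to 0.022 for Sult1d1, -0.81 to 0.97 for Ugt2b, -0.048 to 0.11 for Ugt2b35, -0.022 to 0.16 for Ugt2b37 and -0.90 to 0.055 for Ugt2b7. Without the dimmest genes, 4 members were not tested. Separated groups and calls in the related and marker lists without hypoosmotic replicate 3 were added after seeing the data.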
